A study of Mus musculus with 26 samples.

Results

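The 10 genes described here encode proteins of meiotic chromosomes: the cohesin subunits Rec8, Rad21l, Stag3 and Smc1b and the chromosome axis and synaptonemal complex proteins Sycp1, Sycp2, Sycp3, Syce1, Syce2 and Hormad1. They were picked by symbol from the 55487 genes of the count tables. The family was proposed because the HET to WT differences of some of its genes, Sycp2 and Rec8 among them, were already known. The HET to WT values of the 10 genes are therefore descriptions: no p is given for them, and the calls, standard errors and intervals printed below are what they had in the fit across all genes, not independent evidence. The study asked how a frameshift in Adnp, which encodes a zinc-finger homeodomain protein of chromatin complexes, alters mouse frontal cortex. HET mice carried the frameshift on a single Adnp allele and WT mice were wild-type littermates, all adolescent. RNA sequencing covered 7 HET and 7 WT mice. Open chromatin (ATAC-seq, which maps where a transposase can reach DNA) came as 1 merged peak list for HET and 1 for WT. The Hi-C data and the PAT and Control samples were not analysed here.

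Cohesin is a ring that holds sister chromatids together. In germ cells that enter meiosis, SMC1B takes the place of SMC1A, the kleisins REC8 and RAD21L that of RAD21, and STAG3 that of STAG1 and STAG2. The synaptonemal complex is built on this cohesin axis: SYCP2 and SYCP3 form the lateral elements, SYCP1 the transverse filaments that zip homologues together, and SYCE1 and SYCE2 belong to the central element. HORMAD1 binds the unsynapsed axis and promotes break formation and pairing. In somatic tissue many germline genes are held silent by DNA methylation of their promoters and by a Polycomb complex that contains E2F6, which binds GCGGGAA-like letters, and MGA with MAX, which bind the E-box CACGTG.

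The HET libraries held 33280785 to 47079906 counts and the WT libraries 32814841 to 48291175. Levels are given in CPM, a count divided by the TMM-scaled library total. Adnp itself averaged 6.90 ± 1.30 CPM in HET, against 6.55 ± 0.875 CPM in WT (SD over 7 mice of each genotype); a frameshift need not lower the mRNA. The molecule label reads total RNA for HET 1 to 4 and polyA RNA for HET 5 to 7 and every WT library, although the protocol describes poly-A selection for all. The cortical label was checked on 5 excitatory neuron markers (Slc17a7, Neurod6, Tbr1, Emx1, Neurod2). All were detected, but their summed level ran from 148 over a median of 938 to 1876 CPM in HET and from 569 over 1608 to 2298 CPM in WT. Markers of the thalamus summed to between 126 and 1621 CPM in HET, against 77.9 to 575.5 CPM in WT, so levels of regional markers differed widely between mice. HET 4 was lowest in excitatory and highest in thalamic markers, and WT 4 was the WT library lowest in excitatory markers. In bulk tissue, a change in the number of cells that express a gene and a change in RNA per cell cannot be told apart.

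Of the 10 genes, 7 had enough counts to be tested in the fit across all genes, and 3 of these 7 were called higher in HET: the lateral element gene Sycp2, the central element gene Syce1 and the kleisin gene Rec8. None of the 7 was called lower. A gene was called where the quasi-likelihood test of edgeR, run two-sided, gave a p under 0.05 after Benjamini-Hochberg adjustment over 18050 genes; of these, 0.587% were called higher and 0.382% lower. As this contrast chose the genes, nothing is read from the count. The 3 called genes were also those of the family in which every HET library lay above the highest WT library, an order that 0.432% of the tested genes showed. The kleisin gene Rad21l and the lateral element gene Sycp3 were each 1.95-fold higher in HET without a call. Syce2 and Stag3 were close to equal in the genotypes, and Sycp1, Smc1b and Hormad1 were too low to be tested.

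**Figure D1:**
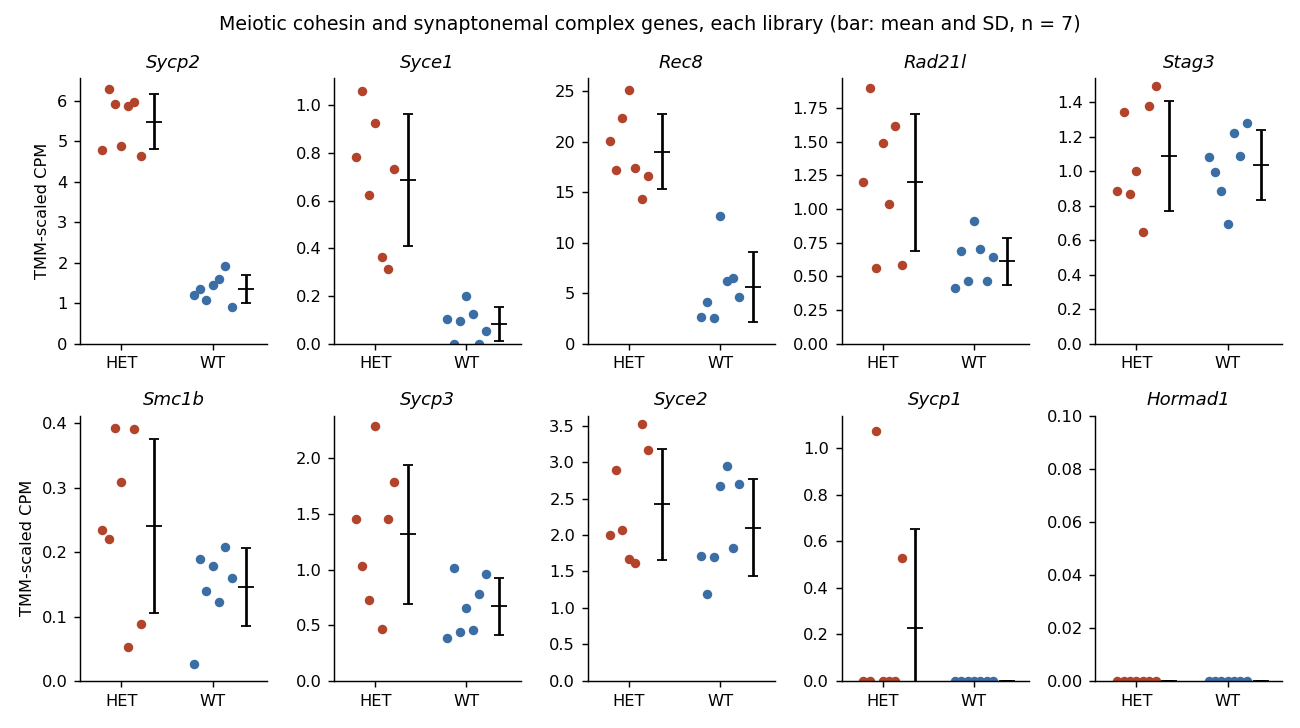
Level of each of the 10 genes in every library, in TMM-scaled CPM (y axis from 0, a scale of its own per gene), with 7 HET points left of 7 WT points and bars for mean and SD (the Sycp1 bar is cut at 0). Sycp2, Syce1 and Rec8 have every HET point above every WT point, Sycp1 has counts in 2 HET libraries, and Hormad1 lies at 0 throughout.

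The upstream sequences of 6 of the genes are shown because they hold the letters that the somatic repressors named above are known to bind in some of them and not in others. Each is the 250 bases before a transcript start in RefSeq on GRCm38.p6, written 5′ to 3′ on the gene's strand, with capitals for GCGGGAA and CACGTG found on either strand. The 3 called genes come first: Sycp2 (chr2:178407659-178407908, minus strand), Syce1 (chr7:140787855-140788104, minus strand) and Rec8 (chr14:55617916-55618165, plus strand). Sycp3 (chr10:88459337-88459586, plus strand), Stag3 (chr5:138280259-138280508, plus strand) and Hormad1 (chr3:95559427-95559676, plus strand) follow.
Sycp2: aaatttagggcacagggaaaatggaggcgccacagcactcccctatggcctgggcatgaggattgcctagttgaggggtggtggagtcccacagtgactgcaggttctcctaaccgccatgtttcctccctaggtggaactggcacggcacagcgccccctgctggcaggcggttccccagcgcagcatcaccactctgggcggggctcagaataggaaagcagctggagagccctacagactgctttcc
Syce1: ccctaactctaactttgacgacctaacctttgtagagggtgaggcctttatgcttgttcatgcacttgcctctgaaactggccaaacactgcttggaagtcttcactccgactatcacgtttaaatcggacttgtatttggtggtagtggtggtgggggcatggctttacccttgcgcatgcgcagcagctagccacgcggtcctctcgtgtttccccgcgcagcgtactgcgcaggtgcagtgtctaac
Rec8: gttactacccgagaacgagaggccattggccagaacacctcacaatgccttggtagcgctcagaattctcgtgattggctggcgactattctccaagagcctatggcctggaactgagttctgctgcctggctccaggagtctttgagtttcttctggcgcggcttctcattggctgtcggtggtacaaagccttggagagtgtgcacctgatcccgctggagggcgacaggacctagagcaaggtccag
Sycp3: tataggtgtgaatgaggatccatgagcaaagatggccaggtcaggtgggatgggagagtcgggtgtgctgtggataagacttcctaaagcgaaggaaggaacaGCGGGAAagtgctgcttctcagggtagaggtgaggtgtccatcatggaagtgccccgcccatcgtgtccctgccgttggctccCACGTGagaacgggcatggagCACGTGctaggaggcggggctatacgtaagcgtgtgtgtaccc
Stag3: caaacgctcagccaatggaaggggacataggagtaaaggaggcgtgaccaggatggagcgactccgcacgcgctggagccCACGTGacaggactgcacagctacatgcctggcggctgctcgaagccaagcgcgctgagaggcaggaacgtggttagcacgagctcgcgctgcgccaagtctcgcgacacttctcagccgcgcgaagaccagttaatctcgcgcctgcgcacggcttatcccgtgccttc
Hormad1: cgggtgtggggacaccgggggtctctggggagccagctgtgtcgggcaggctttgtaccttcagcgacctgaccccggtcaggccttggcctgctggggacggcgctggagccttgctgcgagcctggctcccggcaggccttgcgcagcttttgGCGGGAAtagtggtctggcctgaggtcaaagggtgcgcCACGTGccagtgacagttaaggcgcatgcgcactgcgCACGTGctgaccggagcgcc
The windows of Sycp2, Syce1 and Rec8 held neither word, and that of Rad21l held neither too. Sycp3 and Hormad1 each held GCGGGAA once and CACGTG at a pair of places, and Stag3 held CACGTG once. Across the family GCGGGAA occurred in 4 genes (Sycp3, Syce2, Smc1b, Hormad1) and CACGTG in 5 (Sycp1, Sycp3, Syce2, Stag3, Hormad1). Either word was present in at least 1 window of 6 of the 10 genes, which have 12 windows in all: Syce2 and Hormad1 have 2 each, and 1 of the Syce2 windows held neither. Matches of the 2 words nowhere overlapped. Of all 32851 RefSeq windows of the same length, 3.82% held GCGGGAA, 6.02% held CACGTG and 9.5% held either. A match is a run of letters and not a measured binding site, and its absence says only that the letters are not in this window. The observed over expected CpG ratio was 0.307 for Sycp2, 0.735 for Syce1 and 0.512 for Rec8, where the median over all windows was 0.374. Among the others it was 0.244 for Rad21l, 0.639 for Sycp3, 0.893 for Sycp1, 1.05 for Stag3 and 1.21 for Smc1b, with 0.616 and 0.878 for the 2 Syce2 windows and 0.671 for both Hormad1 windows, so the called genes lay within the range of the rest. The transcript starts of RefSeq and of the annotation used for counting need not coincide: the counted genes Sycp2, Sycp3 and Rec8 begin inside the windows shown, and Stag3 begins at 138280240, before its window.

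Sycp2 (ENSMUSG00000060445, GRCm38 chromosome 2, 178345293 to 178407685, minus strand) encodes the large lateral element protein that lines each homologue. Its level in HET 1 to 7 was 4.79, 6.29, 5.92, 4.89, 5.87, 5.97 and 4.64 CPM. In WT 1 to 7 it was 1.19, 1.35, 1.07, 1.44, 1.59, 1.92 and 0.908 CPM. The lowest HET library thus lay above the highest WT library, and the libraries of a genotype lay close together. The HET mean was 5.48 ± 0.680 CPM and the WT mean 1.35 ± 0.340 CPM (SD, n = 7 each), a log2 fold change of 2.02 (SE 0.16, 95% interval 1.68 to 2.36). The call was kept in each of 14 fits that left out 1 library, with log2 fold changes of 1.94 to 2.12, and in 9 of 9 other settings.

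Rec8 (ENSMUSG00000002324, chromosome 14, 55618037 to 55625395, plus strand) encodes a kleisin of the meiotic cohesin that holds sister chromatids together. HET 1 to 7 had 20.1, 17.2, 22.3, 25.1, 17.4, 14.4 and 16.6 CPM. WT 1 to 7 had 2.59, 4.10, 2.56, 12.6, 6.19, 6.46 and 4.57 CPM. The groups did not overlap, but WT 4 stood far above the other WT libraries and near the lowest HET library, HET 6. Rec8 averaged 19.0 ± 3.71 CPM over the HET mice and 5.58 ± 3.47 CPM over the WT mice (SD, n = 7 each), a log2 fold change of 1.76 (SE 0.31, 95% interval 1.10 to 2.43). Its call was kept in 4 of 14 fits that left out 1 library (HET 3, HET 5, HET 6 or WT 4), with log2 fold changes between 1.64 and 2.11. It was lost with no filter on low counts and with the replicate number as a block (log2 fold change 1.93 with the block). It was also lost in the libraries whose label reads polyA RNA (log2 fold change 1.52, 3 HET against 7 WT).

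Syce1 (ENSMUSG00000025480, chromosome 7, 140777229 to 140787852, minus strand) encodes a central element protein that stabilises synapsis. HET 1 to 7 had 0.781, 1.06, 0.622, 0.926, 0.364, 0.313 and 0.734 CPM. WT 1 to 7 had 0.103, 0, 0.0929, 0.198, 0.122, 0 and 0.0534 CPM. The transcript was thus at the limit of detection in WT, with 24 counts over the 7 libraries and none in 2 of them, against 195 counts in HET. The HET mean was 0.685 ± 0.275 CPM and the WT mean 0.081 ± 0.071 CPM (SD, n = 7 each), a log2 fold change of 3.00 (SE 0.53, 95% interval 1.87 to 4.13). The call was kept in 5 of 14 fits that left out 1 library (HET 3, HET 5, HET 6, WT 2 or WT 4). It was lost with the replicate number as a block (log2 fold change 3.125), with tissue marker levels as covariates (2.65) and in the libraries labelled polyA RNA (2.45).

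**Figure D2:**
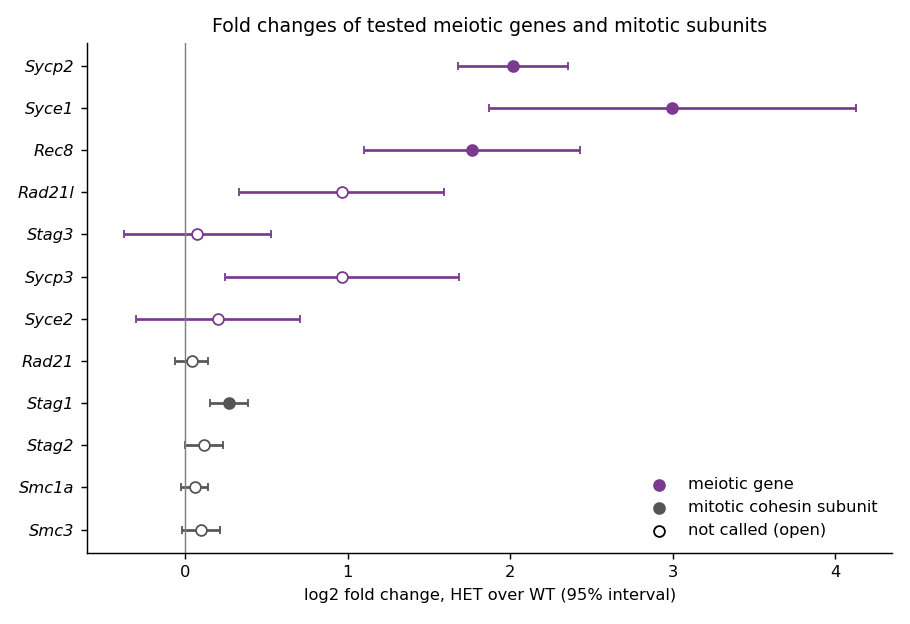
Log2 fold change of HET over WT (x axis, 95% interval as bars) for the 7 meiotic genes and 5 mitotic cohesin subunits that were tested, with filled points for genes called in the fit across all genes. Sycp2, Syce1 and Rec8 lie at 1.76 or above, and the mitotic subunits at 0.27 or below.

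Rad21l (chromosome 2, 151645404 to 151668533, minus strand) encodes the other meiotic kleisin, which loads early in prophase. Its level ran from 0.559 over a median of 1.20 to 1.9 CPM in HET and from 0.414 over 0.641 to 0.908 CPM in WT. The groups overlapped: 5 of 7 HET libraries lay above every WT library, and HET 3 and HET 7 lay among the WT values. The HET mean was 1.20 ± 0.509 CPM and the WT mean 0.612 ± 0.176 CPM (SD, n = 7 each), a log2 fold change of 0.96 (95% interval 0.33 to 1.59) that was not called. Without WT 4, or with DESeq2 (which called 3.82% of all genes it tested higher and 3.6% lower), it was called.

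Sycp3 (chromosome 10, 88459569 to 88473236, plus strand) encodes the lateral element protein that partners SYCP2. Its level ran from 0.468 over 1.46 to 2.29 CPM in HET and from 0.388 over 0.652 to 1.02 CPM in WT. Again 5 of 7 HET libraries lay above the highest WT library. The log2 fold change was 0.97 (95% interval 0.24 to 1.69) and was not called in any fit. The value is uncertain because 660 of the 1264 exonic bases of Sycp3 are also exonic in Chpt1, a phospholipid synthesis gene on the opposite strand, and strand was ignored in counting. Chpt1 averaged 79.1 ± 15.5 CPM in the HET mice, against 61.6 ± 6.65 CPM in the WT mice (log2 fold change 0.36, adjusted p = 0.107 in edgeR, not called).

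The central element gene Syce2 and the cohesin gene Stag3 had overlapping levels. For Syce2, 2 HET libraries exceeded all WT libraries, and for Stag3, 3 exceeded all WT libraries and 1 lay below all of them. Syce2 (chromosome 8, 84872111 to 84888221) ran from 1.61 over 2.07 to 3.52 CPM in HET and from 1.19 over 1.82 to 2.94 CPM in WT. Its log2 fold change was 0.20 with a 95% interval from -0.30 to 0.71. Stag3 (chromosome 5, 138280240 to 138312393), whose product is the meiotic partner of both kleisins, ran from 0.649 over 1.00 to 1.5 CPM in HET and from 0.691 over 1.09 to 1.28 CPM in WT. Its log2 fold change was 0.08 with a 95% interval from -0.38 to 0.53, and it crossed 0 when single libraries were left out (-0.01 to 0.17).

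Smc1b (chromosome 15, 85064689 to 85131964), the meiotic SMC subunit, had 70 counts over the HET libraries and 42 over the WT libraries, with a HET mean of 0.241 ± 0.135 CPM and a WT mean of 0.146 ± 0.060 CPM (SD, n = 7 each). Sycp1 (chromosome 3, 102818499 to 102936100) had 52 counts in HET 3 and 18 in HET 7, and 0 in the other 5 HET and all 7 WT libraries. Counts assigned to Sycp1 thus came from 2 HET libraries and no WT library, and gene-level counts do not show where in the gene the reads lie. Hormad1 (chromosome 3, 95559677 to 95587671) had 0 counts in every library, which allows up to 3 counts per library, or 0.0637 to 0.0901 CPM in HET and 0.0621 to 0.0914 CPM in WT. These limits cover counting error only.

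Levels of different genes can be set side by side per kilobase of exon. On that scale Rec8 was the most abundant family member in both genotypes, at 6.48 ± 1.26 CPM per kb in HET and 1.9 ± 1.18 in WT (SD, n = 7 each). Below it in HET came Syce2 at 1.23, Sycp3 at 1.04, Sycp2 at 0.919, Rad21l at 0.722, Syce1 at 0.469 and Stag3 at 0.190 CPM per kb. In WT the order after Rec8 was Syce2 at 1.07, Sycp3 at 0.531, Rad21l at 0.369, Sycp2 at 0.227, Stag3 at 0.181 and Syce1 at 0.056 CPM per kb. Sycp2 and Syce1 thus stood lower in the WT order than in the HET order. The place of Sycp3 in both orders is uncertain, because 660 of its 1264 exonic bases are shared with Chpt1. The mitotic subunits were more abundant than their meiotic counterparts: the kleisin Rad21 stood at 34.6 CPM per kb in HET and 33.6 in WT, Smc1a at 15.8 in HET and 15.2 in WT, Smc3, which both rings use, at 11.7 in HET and 11.0 in WT, and Stag2 at 9.44 in HET and 8.71 in WT.

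Of the 5 mitotic subunits, 1 was called. Stag1, which helps hold cohesin on chromatin, had 39.1, 34.6, 38.1, 33.5, 41.5, 35.5 and 36.6 CPM in HET 1 to 7. In WT 1 to 7 it had 30.1, 30.5, 30.6, 32.8, 31.9, 30.5 and 28.5 CPM. Every HET library lay above every WT library, by a small margin, an order that 0.432% of the tested genes showed. Stag1 rose to 37.0 ± 2.79 CPM in HET, against 30.7 ± 1.36 CPM in WT (SD, n = 7 each; log2 fold change 0.27, SE 0.05, adjusted p = 0.0408 in edgeR). That call was kept in 3 of 14 fits that left out 1 library (HET 5, HET 6 or WT 4). It was lost with no filter on low counts, with the replicate number as a block, with tissue marker levels as covariates and in the libraries labelled polyA RNA. The median log2 fold change was 0.10 over the 5 subunits and 0.02 over all tested genes.

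No gene of a wider list of meiotic genes was called in edgeR. Of 49 further genes for recombination, synapsis, telomere attachment and meiotic entry, 30 were tested and 0 were called in edgeR, with 5 at an unadjusted p under 0.05, which 22.2% of all tested genes had. DESeq2 called 1 higher (Hsf2bp). The limma-voom fit called 1 higher (Prdm9) and 1 lower (Sun1), where it called 5.26% of all genes higher and 5.46% lower. The log2 fold change was positive for 19 and negative for 11, with a median of 0.07 against 0.02 over all tested genes. The meiotic entry gene Stra8 had 0 counts in all libraries.

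The 5 genes at an unadjusted p under 0.05, named here after their values were seen, were all higher in HET. Hsf2bp, whose product brings BRCA2 to meiotic breaks, averaged 0.921 ± 0.497 CPM in HET, against 0.259 ± 0.169 CPM in WT (SD, n = 7 each; log2 fold change 1.82, SE 0.47, adjusted p = 0.066 in edgeR). In 5 of 7 HET libraries it lay above the highest WT library. Tex15, a germ cell gene needed for break repair and transposon silencing, was higher by 1.14 on the log2 scale (adjusted p = 0.180). The break formation gene Iho1 had 0.93 (adjusted p = 0.132), the hotspot methyltransferase gene Prdm9 had 0.53 (adjusted p = 0.160) and Top6bl, the partner of the break-making enzyme Spo11, had 0.45 (adjusted p = 0.209). The most abundant of the 49 per kilobase in WT also have somatic roles. The nuclear envelope gene Sun1 stood at 10.2 CPM per kb in HET and 12.4 in WT, the RNA helicase gene Ythdc2 at 4.19 in HET and 4.52 in WT, and the mismatch repair gene Mlh3 at 3.62 in HET and 3.89 in WT. Their log2 fold changes were -0.29, -0.11 and -0.10.

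**Figure D3:**
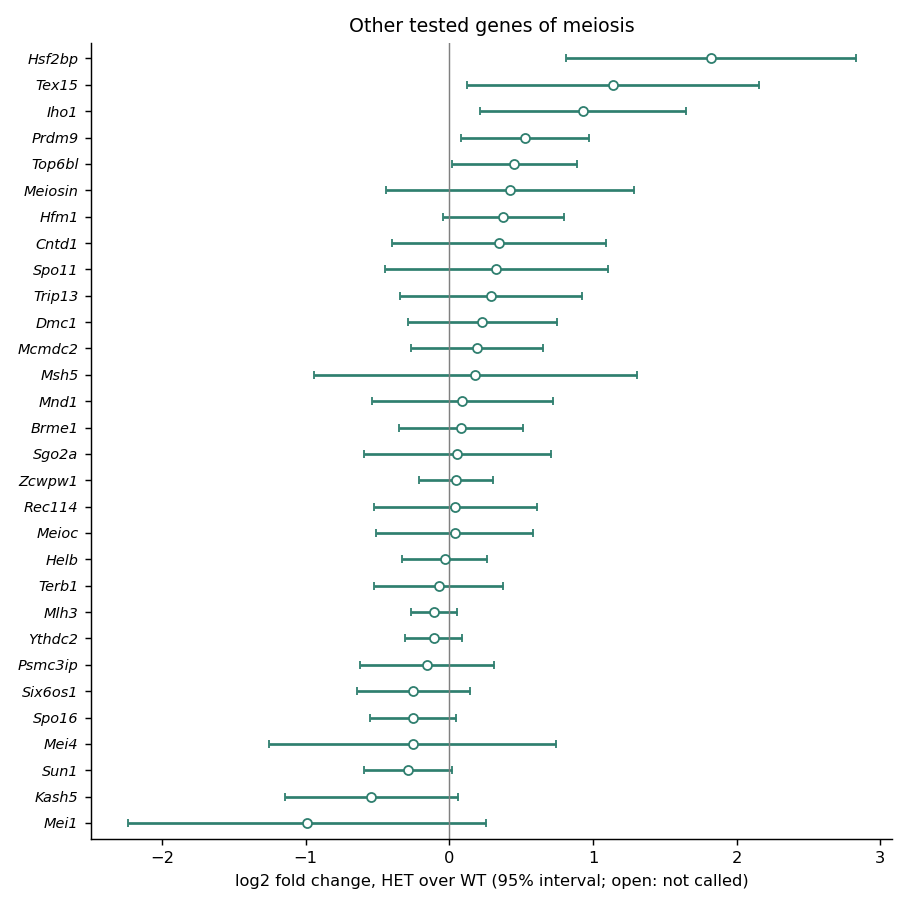
Log2 fold change of HET over WT (x axis, 95% interval as bars) for the 30 tested genes of the wider list of meiotic genes, ordered by fold change; open points are genes not called. All 30 are open, and Hsf2bp at 1.82 is the highest.

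The summed levels of germ cell markers overlapped between the genotypes, while single markers within the sums differed in opposite directions. The 9 spermatogenic markers summed to between 6.10 and 11.3 CPM in HET and between 6.88 and 9.95 CPM in WT, and the 5 oocyte markers to between 0.662 and 1.30 CPM in HET and between 0.621 and 1.36 CPM in WT. Of the late markers, the transition protein gene Tnp1 was at 0 counts in all libraries. The protamine gene Prm1 averaged 0.341 CPM in HET and 0.269 CPM in WT, and Prm2 0.018 CPM in HET and 0.007 CPM in WT. The sperm head gene Zpbp averaged 2.02 ± 0.290 CPM in HET, against 1.58 ± 0.349 CPM in WT. Ldhc, Acrv1 and Sohlh1 each stayed below 0.04 CPM on average in both genotypes. The early germ cell gene Ddx4 averaged 3.48 ± 0.493 CPM in HET, against 2.32 ± 0.622 CPM in WT, and Dazl 2.93 ± 1.64 CPM in HET, against 3.92 ± 0.521 CPM in WT (SD, n = 7 each). Of the 9 spermatogenic markers 4 were tested, with 0 called in edgeR, 1 at an unadjusted p under 0.05, 1 called in DESeq2 and 1 in limma-voom. Among all tested genes 22.2% had an unadjusted p under 0.05. DESeq2 called 3.82% of the genes it tested higher and 3.6% lower, and limma-voom 5.26% higher and 5.46% lower. Nothing is read from these counts of markers.

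Within each genotype Rec8 was higher where the excitatory markers were lower, a relation that did not pass adjustment. HET 4, lowest in excitatory markers, had the highest Rec8 of the HET libraries, and HET 6, highest in them, had the lowest. WT 4 had the lowest excitatory sum and the highest Rec8 of the WT libraries. Most of the sum came from Slc17a7, which averaged 734 CPM in HET and 1336 CPM in WT. The Pearson correlation of log2 Rec8 with the log2 excitatory sum was -0.84 over the 7 HET libraries (exact permutation p = 0.0175, 0.122 after Benjamini-Hochberg adjustment over 14 relations) and Spearman's rho was -0.82 (exact permutation p = 0.0341, adjusted 0.224). Over the 7 WT libraries r was -0.91 (exact permutation p = 0.0111, adjusted 0.122) and rho -0.86 (exact permutation p = 0.0238, adjusted 0.224). Without the 2 libraries farthest from the median sum, r was -0.70 in HET and -0.72 in WT. None of the 14 relations, looked at after the values were seen, passed the adjustment. For Sycp2 r was 0.58 in HET (exact permutation p = 0.223) and -0.27 in WT (exact permutation p = 0.551). For Syce1 r was -0.62 in HET (exact permutation p = 0.0837) and -0.44 in WT (exact permutation p = 0.311). Its rho was -0.79 in HET (exact permutation p = 0.0480, adjusted 0.224) and -0.18 in WT (exact permutation p = 0.701).

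The excitatory sum was itself lower in HET (median log2 fold change of its 5 markers -1.10, 0 called in edgeR, 2 at an unadjusted p under 0.05, 0 in DESeq2 and 1 in limma-voom). The thalamic sum was higher in HET, with a median of 404 CPM against 135 CPM in WT (median log2 fold change of its 7 markers 1.25, 0 called in edgeR, 4 at an unadjusted p under 0.05, 1 in DESeq2 and 1 in limma-voom). Among all tested genes 0.97% were called in edgeR and 22.2% had an unadjusted p under 0.05. DESeq2 called 3.82% of the genes it tested higher and 3.6% lower, and limma-voom 5.26% higher and 5.46% lower. With the mean levels of excitatory, striatal and thalamic markers as covariates the log2 fold change was 1.47 for Rec8 and 2.08 for Sycp2, both called, and 2.65 for Syce1, not called. Without HET 4 and WT 4, a choice made after seeing the data, it was 2.03 for Rec8, 2.06 for Sycp2 and 3.35 for Syce1, with all 3 called. Over all genes the fit without HET 4 and WT 4 called 1198. The fit with covariates called 31, and the fit on all libraries without covariates called 175. Beyond these fits, the part of tissue makeup in the family's values was not tested.

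**Figure D4:**
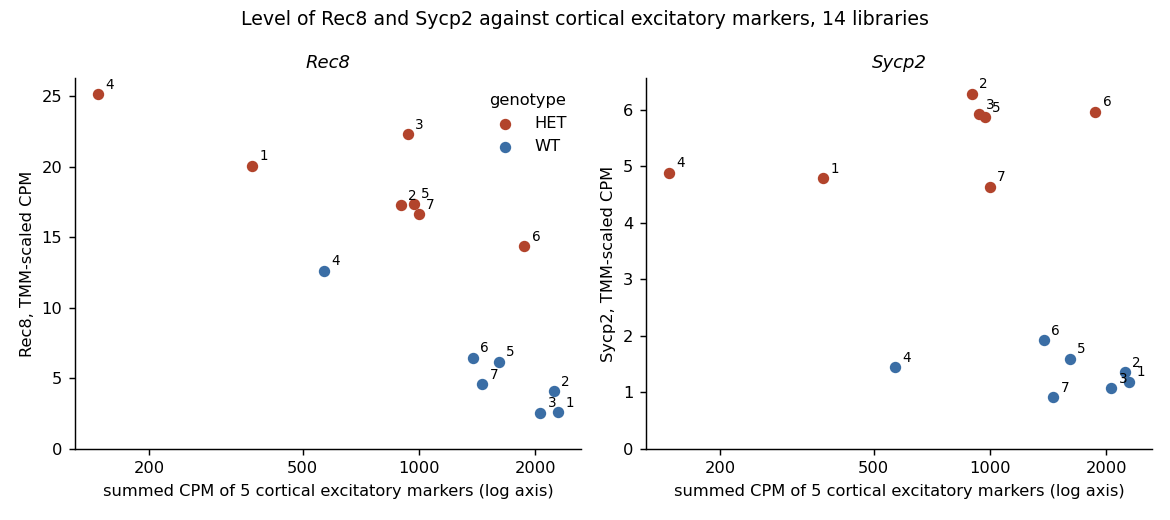
Level of Rec8 (left) and Sycp2 (right) in TMM-scaled CPM (y axis from 0) against the summed CPM of 5 cortical excitatory markers (log x axis), with 1 point per library numbered by replicate. Within each genotype Rec8 is highest in the library with the lowest marker sum (25.1 CPM in HET 4, 12.6 CPM in WT 4), and Sycp2 stays between 4.64 and 6.29 CPM in HET and between 0.908 and 1.92 CPM in WT.

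Within genotypes the correlations between members of the family differed from pair to pair, and they were not tested. After the mean of each genotype was subtracted, the Pearson correlation of log2 CPM over the 14 libraries was 0.40 between Sycp2 and Rec8. Over the pairs of the 7 tested genes it ran from -0.32 (Rec8 with Stag3) to 0.56 (Syce2 with Stag3). Most of these genes had few counts per library, which weakens such correlations. The values therefore do not show whether the genes vary together. By the same correlation the 5 tested genes closest to Sycp2 were Galnt12 (0.88), Gm7535, Gm30731 and D930015M05Rik (0.81 each) and Gfpt2 (0.80). Those closest to Rec8 were Mrpl10, Gm17396 and Npffr1 (0.94 each), Xrcc3 and Gabrg1 (0.93 each). These values are the highest of 18050 genes over libraries that differ in depth and in tissue markers, and are given as a description.

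The family is spread over 8 chromosomes. Sycp2 and Rad21l share chromosome 2 with Adnp, at 10.1 and 16.5 Mb from it. Of the 20 nearest tested genes on either side of the 10 genes, a set defined after the files were read, 0 were called in edgeR, 3 had an unadjusted p under 0.05, and DESeq2 and limma-voom called 0. Over all tested genes 0.97% were called in edgeR and 22.2% had an unadjusted p under 0.05, so nothing is read from these counts of neighbours. The log2 fold changes of the 20 neighbours ran from -1.03 to 0.34. The genes flanking Sycp2 were Phactr3 with -0.22 and Ppp1r3d with 0.05. Rec8 lies between Irf9 with 0.12 and Ipo4, whose nearest edge is 0.005 kb away, with 0.06.

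The positions of the 10 genes were set against both peak lists. The HET list held 30862 peaks and the WT list 19272, on mm10 and without heights, so presence and distance are all that can be compared. Stag3 and Hormad1, or 2 of 10 genes, had a peak within 5 kb of the gene in the HET list and in the WT list. Of all genes 38.0% had one in the HET list and 32.1% in the WT list, and of the tested genes 81.2% in the HET list and 73.1% in the WT list. A window of 10 kb gave 5 of 10 genes in each list, so nothing is read from the count. Only Stag3 had a peak within 1 kb of its start, at chr5:138280009-138280366 in HET and chr5:138280046-138280433 in WT, which cover 108 (HET) and 175 (WT) of the 250 upstream bases shown above. The Hormad1 peak lay past the gene's end, at 0.944 kb in HET and 0.827 kb in WT, on the start of the neighbouring gene Golph3l.

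The 3 called genes had no peak within 5 kb in either list. The nearest to Sycp2 lay at 6.90 kb in HET and 6.77 kb in WT, by the starts of Fam217b and Ppp1r3d. The nearest to Rec8 lay at 9.90 kb in HET and 9.95 kb in WT, by the start of Ipo4. The nearest to Syce1 lay at 33.9 kb in HET and 33.6 kb in WT, on the start of Zfp941. No peak at a promoter was thus listed for these genes in the genotype in which they were higher, and no source used here gives the depth behind the lists.

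**Figure D5:**
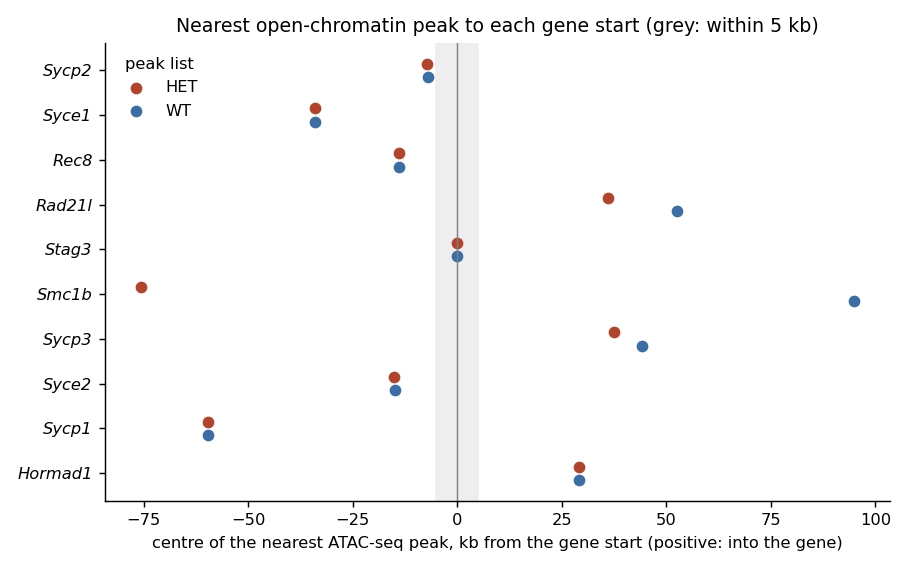
Distance in kb (x axis, positive into the gene) from the start of each of the 10 genes to the centre of the nearest ATAC-seq peak, with the HET list above the WT list for each gene and 5 kb on either side shaded. The Stag3 points of both lists lie at the start, and all others lie beyond 5 kb.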

How the data were processed

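Per the labels' protocols, RNA of frontal cortex was selected for poly-A and sequenced as read pairs. The authors deposited raw counts per gene for each mouse. Reads over exons were counted by gene with featureCounts 2.0.1, per the file headers, against Ensembl GRCm38 release 102 with strand ignored, so reads of overlapping genes on opposite strands cannot be told apart. STAR, Trimmomatic and DESeq2 were named without versions, per the submitters' processing notes. The ATAC-seq values are the authors' deposited peak positions on mm10, 1 merged list per genotype; Bowtie2 2.4.4 and MACS3 were named per the submitters' processing notes, without the settings of the caller.

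Counts were filtered by filterByExpr, scaled by TMM, and fitted by edgeR 4.0.16 in R 4.3.3, with the fit checked on simulated data. All 7 HET and 7 WT libraries entered; no pair of libraries agreed within sampling noise (chi-square per degree of freedom at least 9.38 over 91 pairs). Replicates are separate mice, per the labels' protocols. Alternatives were DESeq2 1.42.0, its size factors, limma-voom (limma 3.58.1), other filters and thresholds, the replicate block, tissue covariates, the libraries labelled polyA RNA, and leaving out libraries. The genes and lists were chosen with earlier results of these data known. Named were all 10 genes, the 5 mitotic subunits, called and most abundant genes of the wider meiotic list, overlapping genes, the genes most like Sycp2 and Rec8, Adnp, and tissue and germ cell markers; 1 excitatory marker is not reported here and is in none of the sums or covariates. Upstream sequences are RefSeq's on GRCm38.p6; all 10 genes matched.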

Additional observations from a re-analysis of the deposited data

Results flagged for a closer look

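Rec8 in WT 4 stood at 12.6 CPM, apart from the other 6 WT libraries. Its gap to the next WT library was 0.612 of the whole WT range, above Dixon's 95% critical value for a group of that size. Of 27 groups of 7 libraries examined 1 passed, and as chance passes about 1 in 20, a single pass is not unusual. Without WT 4 the Rec8 call was kept. WT 4 was also the WT library lowest in cortical excitatory markers (569 CPM against a WT median of 1608 CPM), and the part of that in its Rec8 level was not tested.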

How the results depend on the processing

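Across all genes 175 were called, against 1403 in DESeq2, 1934 in limma-voom, 106 with no filter on low counts, 31 with tissue markers as covariates, 1195 at an adjusted p under 0.1, 4 in the libraries labelled polyA RNA (3 HET, 7 WT), and 1198 without HET 4 and WT 4. Leaving out 1 library gave between 11 and 1672. Of the 10 meiotic genes 3 were called, against 1 (Sycp2) in the polyA libraries and 1 to 4 with 1 library left out. The wider meiotic list went to 1 called higher in DESeq2, in limma-voom and at an adjusted p under 0.1, and to 0 or 1 with 1 library left out. The mitotic subunits went to 0 called with no filter, with tissue covariates and in the polyA libraries, and to 0 or 1 with 1 library left out. A window of 10 kb raised the genes with a peak to 5 in each list. With the replicate number as a block 10 genes were called, of them 1 meiotic gene (Sycp2) and 0 mitotic subunits. Same-numbered libraries correlated from -0.28 to 0.33, and 1 of 7 correlated best with its own number. As regional marker levels differed widely between mice, these correlations cannot show whether the numbers mark pairs of mice. A filter of 1 CPM in 7 libraries left Syce1, Rad21l and Sycp3 untested. For the 7 tested meiotic genes and 5 mitotic subunits, no log2 fold change moved by more than 1 SD between libraries. Depth limits Syce1, Smc1b, Sycp1 and Hormad1, whose levels in WT rest on few or no counts.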
